A study of Rattus norvegicus with 4 samples.

Results

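Activins and the TGF-beta isoforms are secreted dimers of one superfamily, and smooth muscle cells both make them and respond to them. The 10 genes described here encode 2 activin subunits (Inhba and Inhbb), the activin antagonists follistatin (Fst) and follistatin-like 3 (Fstl3), the related glycoprotein Fstl1, the 3 TGF-beta isoforms (Tgfb1, Tgfb2 and Tgfb3) and the type I receptors Tgfbr1 and Acvr1. Members were all probe sets annotated to exactly 1 gene symbol that was one of these 10 names, which gave 19 of the 23707 probe sets tested and 10 of 12922 genes. The rule goes by gene name, and the list of names was drawn up with earlier results of these data known.

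The cells were rat aortic smooth muscle cells, held at 10% serum for 24 h and then without serum and insulin for 72 h. PDGF-BB, a platelet-derived growth factor dimer and a mitogen for these cells, was given at 30 ng/mL for 3 h to the treated cells, and 0.2% bovine serum albumin in 10 mM acetic acid to the vehicle cells. Each group had 2 Affymetrix arrays, and the series looked for early genes of the loss of the contractile phenotype. The labels do not say whether the 2 arrays of a group were separate cultures, so p-values measure only the spread between these arrays, which may be technical. The labels do not state the strain or sex of the rats.

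Activin A is a dimer of 2 Inhba chains and activin B of 2 Inhbb chains. Both bind type II receptors, which then switch on type I receptors, and the signal passes to Smad2 and Smad3. The TGF-beta isoforms use another type II receptor and Tgfbr1, also called ALK5, and reach the same Smads. Follistatin and Fstl3 wrap around activin and keep it from its receptors. They do not hold TGF-beta in this way, which is instead secreted in a latent form bound to its own propeptide. In arteries TGF-beta is known for raising contractile and matrix genes.

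After 3 h of PDGF-BB, the activin A subunit and its antagonist follistatin were the members that rose most. Inhba was 14.5-fold and Fst 12.8-fold higher in the brightest probe set of each gene, on the scale of log2(intensity + 16). Tgfb1 was 2.47-fold and Acvr1 1.62-fold higher. Inhbb, Fstl3, Fstl1, Tgfb2 and Tgfb3 lay within a log2 fold change of -0.26 to 0.19 and missed the threshold, as did Tgfbr1 at 0.37. At a limma adjusted p under 0.05, 4 of the 10 genes were higher and 0 lower, against 12.4% higher and 15.2% lower among all genes, and 27.6% called in either direction. The 4 genes became 3 without either PDGF-BB array and 2 without either vehicle array. The higher genes were 5, with Tgfbr1 added, under 6 of 12 other processing settings. Counted by probe set, 8 of 19 were higher, against 11.4% of all probe sets. Of the 19, 14 had a vehicle mean of 250 to 5000. Among all 9402 probe sets in that range, 37.4% were called in either direction.

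The windows just upstream of the transcription start, taken from RefSeq on GRCr8, are shown for the activin subunit that rose, the one that was not called and the TGF-beta isoform that rose, because the 3 differ in composition. RefSeq windows were found for 8 of the 10 genes, without Fst and Acvr1. Each run is the 250 bases before the start, 5′ to 3′, and capitals mark the motifs searched, on either strand.
Inhba, GRCr8 chr17:53804509-53804758, minus strand: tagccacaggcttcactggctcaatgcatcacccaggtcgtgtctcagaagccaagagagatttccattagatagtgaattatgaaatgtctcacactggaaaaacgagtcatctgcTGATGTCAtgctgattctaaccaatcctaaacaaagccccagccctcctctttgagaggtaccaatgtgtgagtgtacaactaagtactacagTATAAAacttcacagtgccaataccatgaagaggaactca
Inhbb, GRCr8 chr13:33089374-33089623, minus strand: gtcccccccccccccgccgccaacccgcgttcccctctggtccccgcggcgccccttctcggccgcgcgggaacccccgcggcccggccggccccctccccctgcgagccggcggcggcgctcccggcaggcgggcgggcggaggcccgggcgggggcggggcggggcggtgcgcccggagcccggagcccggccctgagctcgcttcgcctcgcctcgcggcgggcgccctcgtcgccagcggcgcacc
Tgfb1, GRCr8 chr1:90324062-90324311, plus strand: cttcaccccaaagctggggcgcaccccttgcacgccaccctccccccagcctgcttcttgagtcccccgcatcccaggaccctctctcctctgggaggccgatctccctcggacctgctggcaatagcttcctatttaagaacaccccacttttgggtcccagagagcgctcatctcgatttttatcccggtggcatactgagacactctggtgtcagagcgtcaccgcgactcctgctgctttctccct

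In the Inhba window the capitals are TGATGTCA, a variant of the cyclic AMP response element, at -133 to -126, and TATAAA, the TATA box sequence, at -40 to -35. These are held by 3.80% and 12.9% of 33469 rat windows of the same length. The window is a description of one annotated start, and the annotation also has predicted Inhba transcripts that begin further upstream. The letters TGAGTCA (an AP-1 element), TGACGTCA (the full cyclic AMP response element) and the CArG box, bound by SRF, were not in any of the 8 windows. They occur in 4.05%, 1.59% and 1.50% of all windows. TATAAA was also read on the opposite strand of the Fstl3 window, at -28 to -23. Base composition set the 2 activin subunits apart. The Inhba window was 43.6% G or C with 2 CG dinucleotides, and the Inhbb window 86.8% with 44, against a median of 51.2% and 5 over all windows. Tgfb1 had 60.0% and 11. The motifs were chosen with the Inhba window in view, so their presence in it is not a test.

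The arrays were alike in overall level. Median probe set intensities ran from 132 to 148, and the highest value on each array from 16721 to 17218. The deposited table has no detection calls. The highest of 27 Bacillus control probe sets, 80.3, served as a rough mark of background, and 41.0% to 41.8% of the probe sets on an array did not exceed it. All 19 member probe sets were above it on all 4 arrays. All 8 smooth muscle markers looked for had means above it in both groups, among them Acta2 at 10877 with PDGF-BB and 11624 with vehicle. Their summed intensity was 36622 to 37456 with PDGF-BB and 39035 to 39523 with vehicle. Of the 8, 4 were called lower, with log2 fold changes of -1.70 for Lmod1, -0.94 for Synpo2, -0.79 for Smtn and -0.70 for Myh11. The other 4 were not called. Their log2 fold changes were 0.26 for Cnn1, 0.17 for Des, 0.02 for Tagln and -0.10 for Acta2. Of other cell types, 1 of 6 endothelial markers measured (Esam), 2 of 7 leukocyte markers (Cd14 and Aif1) and 3 of 7 fibroblast markers (Col14a1, Thy1 and Lum) had means above it in both groups. Summed over the markers, endothelial intensity was 268 to 278 with PDGF-BB and 344 to 355 with vehicle, leukocyte intensity 1401 to 1518 with PDGF-BB and 1645 to 1696 with vehicle, and fibroblast intensity 3893 to 4061 with PDGF-BB and 4595 to 4661 with vehicle. Each sum was mostly 1 gene: Esam had means of 205 with PDGF-BB and 289 with vehicle, Cd14 of 1209 with PDGF-BB and 1434 with vehicle, and Col14a1 of 3590 with PDGF-BB and 4213 with vehicle. Esam was the 1 marker of these 3 lists that was called. The means of Kdr, Emcn, Cd68, Csf1r, Aif1 and Cd3e were higher with PDGF-BB. So were those of the fibroblast markers Pdgfra, Dpt, Thy1 and Fbln1. The endothelial markers Pecam1 and Vwf and the leukocyte marker Ptprc had means of 7.10 to 20.3 in both groups. The part of other cells in the results was not tested. In such bulk RNA, fewer cells that make a transcript and less of it per cell cannot be told apart.

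**Figure D1:**
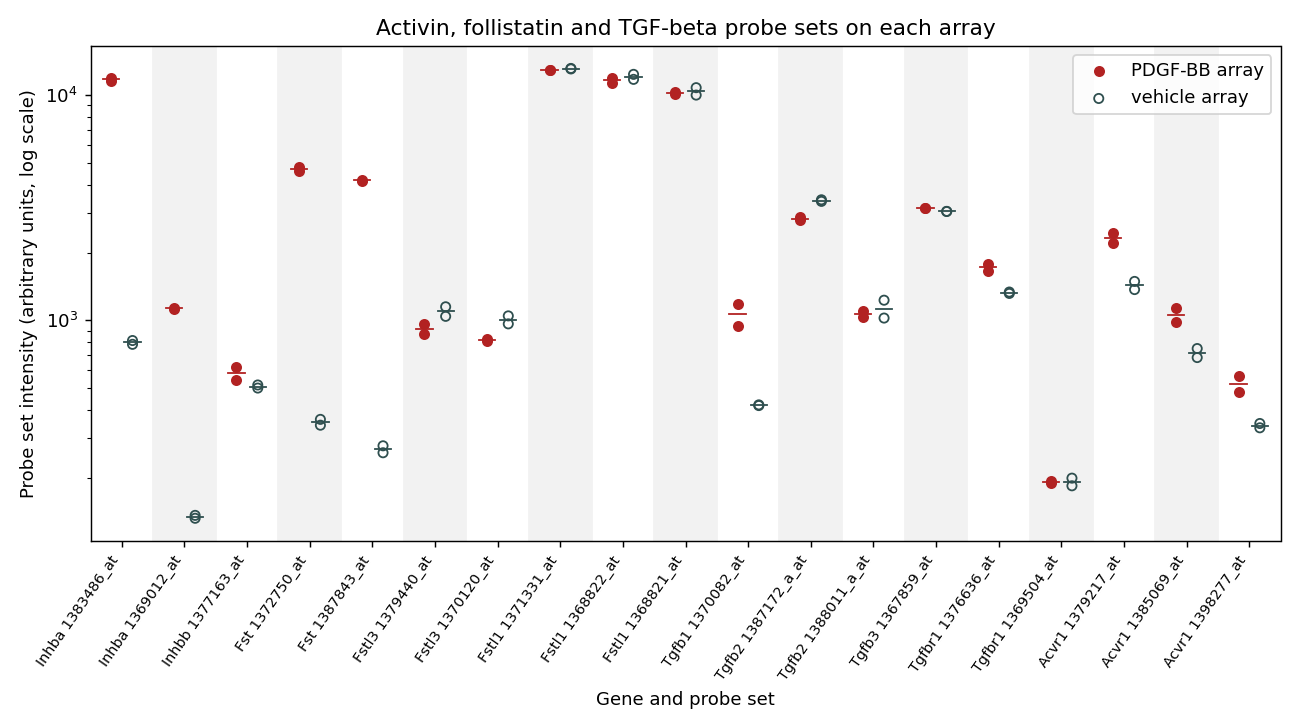
Intensity of each of the 19 member probe sets on each array, on a log axis, with filled points for the 2 PDGF-BB arrays, open points for the 2 vehicle arrays and short lines for group means. The groups lie far apart for Inhba and Fst, clearly apart for Tgfb1 and the 3 Acvr1 probe sets, and close together or mixed for the rest.

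Inhba encodes the beta A chain of activin A. Its brighter probe set, 1383486_at, read 11960 and 11577 on the PDGF-BB arrays and 782 and 813 on the vehicle arrays. Both PDGF-BB values were far above both vehicle values, and the arrays of a group differed by a few percent. The log2 fold change was 3.86 (adjusted p 0.000433 by limma, SE 0.09), which placed it 49th among the increases of 23707 probe sets. The second probe set, 1369012_at, read 1125 and 1138 with PDGF-BB and 136 and 132 with vehicle. It was 7.65-fold higher, a log2 fold change of 2.93 (adjusted p 0.000552 by limma, SE 0.09). The probe sets therefore gave the same direction and differed by 0.92 in size on the log2 scale, more than either standard error.

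Inhbb encodes the beta B chain, which forms activin B and, with Inhba, activin AB. Its probe set read 621 and 544 with PDGF-BB and 500 and 516 with vehicle. The groups did not overlap, but the PDGF-BB arrays differed by more from each other than the lower one did from vehicle. The log2 fold change was 0.19 (adjusted p 0.276 by limma, SE 0.11), with a 95% interval of -0.09 to 0.47 that left out a 2-fold change in either direction.

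Follistatin, the product of Fst, binds activin with very high affinity and neutralises it. Probe set 1372750_at read 4583 and 4803 with PDGF-BB and 342 and 363 with vehicle. The log2 fold change was 3.68 (adjusted p 0.000433 by limma, SE 0.09). The second probe set, 1387843_at, read 4197 and 4157 with PDGF-BB and 258 and 277 with vehicle, a log2 fold change of 3.89 (adjusted p 0.000433 by limma, SE 0.09). Both probe sets separated the groups widely and differed from each other by 0.21 on the log2 scale. They ranked 62nd and 46th among the increases of all probe sets.

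Fstl3 encodes a second activin antagonist of the follistatin type. Probe set 1379440_at read 963 and 871 with PDGF-BB and 1041 and 1148 with vehicle, a log2 fold change of -0.25 (adjusted p 0.175 by limma, SE 0.11). Probe set 1370120_at read 809 and 828 with PDGF-BB and 964 and 1046 with vehicle, a log2 fold change of -0.29 (adjusted p 0.0962 by limma, SE 0.09). In both, the PDGF-BB arrays lay below the vehicle arrays and the call was missed. It was made for the first with quantile normalization (0.0371), and for the second with an offset of 64 (0.0391), with the dim probe sets left out (0.0339) and with a variance prior that follows intensity (0.0325). The largest fall inside the 95% intervals was -0.54 in both probe sets.

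Fstl1 shares a follistatin domain with these proteins but is a distinct secreted glycoprotein, and an activin-blocking role like that of follistatin is not established for it. Its brightest probe set, 1371331_at, read 12874 and 12868 with PDGF-BB and 13072 and 13141 with vehicle. The other 2 had means of 11635 and 10195 with PDGF-BB, against 12059 and 10399 with vehicle, and their groups overlapped. The 3 log2 fold changes were -0.05 to -0.03, all missed the threshold (adjusted p 0.734 to 0.865 by limma), and all turned positive, 0.03 to 0.05, when array medians were subtracted. These probe sets read near the top of the scale. Of 127 probe sets with a vehicle mean over 10000, 1 was called (0.8%), against 37.4% of the 9402 with a vehicle mean of 250 to 5000, where 14 of the 19 member probe sets lie. Whether the bright end of the scale can show a change was not tested.

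**Figure D2:**
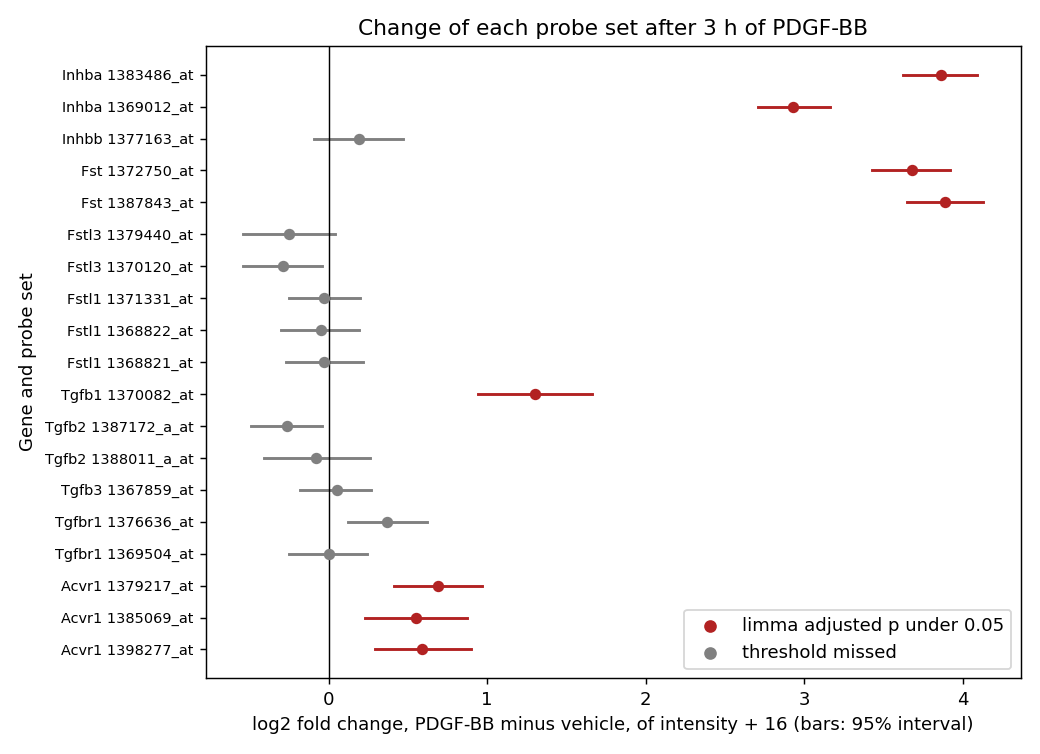
Log2 fold change of each member probe set, PDGF-BB minus vehicle, with its 95% interval from the limma fit; red marks a limma adjusted p under 0.05. Inhba and Fst lie between 2.93 and 3.89, Tgfb1 at 1.30, Acvr1 between 0.55 and 0.69, and the grey ones between -0.29 and 0.37.

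Among the TGF-beta isoforms, Tgfb1 encodes the most studied one, a growth regulator of vascular smooth muscle. It read 1180 and 948 with PDGF-BB and 418 and 421 with vehicle. Both PDGF-BB arrays were at least 2-fold above both vehicle arrays, and they were further apart from each other than those of any other called member on the log2 scale. The log2 fold change was 1.30 (adjusted p 0.00622 by limma, SE 0.13). The call was narrowly missed without vehicle replicate 1 (0.0539) or vehicle replicate 2 (0.0523), where the log2 fold changes were 1.30 and 1.31.

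Tgfb2 encodes an isoform that betaglycan presents to the receptors. Probe set 1387172_a_at, whose suffix marks probes shared by several transcripts of the gene, read 2861 and 2800 with PDGF-BB and 3374 and 3429 with vehicle. The PDGF-BB arrays were below the vehicle arrays, with a log2 fold change of -0.26 (adjusted p 0.0962 by limma, SE 0.09). Under 5 of 12 other settings it passed, among them quantile normalization, with -0.41 (adjusted p 0.0145 by limma). The second probe set, 1388011_a_at, read 1094 and 1033 with PDGF-BB and 1023 and 1228 with vehicle, which overlap, and its log2 fold change of -0.08 (adjusted p 0.713 by limma, SE 0.12) became 0.05 without vehicle replicate 2.

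Tgfb3 encodes the third isoform. It read 3148 and 3142 with PDGF-BB and 3042 and 3046 with vehicle, a log2 fold change of 0.05 (adjusted p 0.736 by limma, SE 0.08) that was -0.10 after quantile normalization. Its 95% interval was -0.18 to 0.27. Of the 3 isoforms, Tgfb1 passed the threshold; the difference in change between isoforms was not tested.

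Acvr1 encodes ALK2, a type I receptor of BMPs that can also bind activin. Its 3 probe sets were higher with PDGF-BB. The brightest, 1379217_at, read 2435 and 2208 with PDGF-BB and 1369 and 1488 with vehicle, a log2 fold change of 0.69 (adjusted p 0.0151 by limma, SE 0.10). The other 2 had log2 fold changes of 0.55 (adjusted p 0.0374 by limma, SE 0.12) and 0.59 (adjusted p 0.0278 by limma, SE 0.11), and the groups did not overlap in any of the 3. The brightest probe set lost its call without PDGF-BB replicate 1 (0.0552), PDGF-BB replicate 2 (0.0506), vehicle replicate 1 (0.120) or vehicle replicate 2 (0.0884), with log2 fold changes of 0.62 to 0.76.

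Tgfbr1 encodes ALK5, through which TGF-beta signals. Probe set 1376636_at read 1783 and 1652 with PDGF-BB and 1335 and 1316 with vehicle. The groups were apart, yet its log2 fold change of 0.37 (SE 0.09) had a limma adjusted p of 0.0527. It passed under 6 of 12 other settings, for example with array medians subtracted (0.45, limma adjusted p 0.0182). The dimmer probe set, 1369504_at, read 193 and 189 with PDGF-BB and 199 and 184 with vehicle. These overlap, and its log2 fold change was -0.00 (adjusted p 0.988 by limma, SE 0.09), with either sign under other scalings (0.12 after cyclic loess). Both PDGF-BB arrays lay beyond both vehicle arrays in 15 of the 19 member probe sets, 11 above and 4 below, a separation seen in 63.0% of all probe sets. By the brightest probe set of each gene, it held for 10 of 10 genes, 7 above and 3 below, against 67.5% of all genes.

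The change of Inhba was then set against that of each other secreted member, with the brightest probe set for each gene. On every array the log2 value of the other gene was subtracted from that of Inhba, so that a scaling factor of the array largely cancels. Levels of different probe sets are not comparable, and only the shift of this difference between the groups has meaning. With 2 arrays against 2, the exact two-sided permutation test cannot go below p = 0.333, and all 7 comparisons gave this value, also after adjustment over the 7. The sizes are therefore given beside the spread between arrays.

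By the brightest probe set of each gene, Inhba and its antagonist follistatin moved by nearly the same amount. That Inhba probe set had a mean of 11769 with PDGF-BB, in the bright range above 10000. Whether this range limited its change was not tested. Inhba minus Fst was 1.38 and 1.27 on the PDGF-BB arrays and 1.16 and 1.13 on the vehicle arrays, a shift of 0.18 with SDs of 0.08 and 0.02. With all probe sets of each gene averaged, the shift was -0.39, so which of the pair rose more depended on the probe sets. Against the other antagonist, Inhba minus Fstl3 was 3.61 and 3.71 with PDGF-BB and -0.41 and -0.49 with vehicle. That is a shift of 4.11, or 17.2-fold, with SDs of 0.07 and 0.06. Inhba minus Fstl1 shifted by 3.88 and Inhba minus Inhbb by 3.67.

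Inhba shifted upward against each TGF-beta isoform as well. Inhba minus Tgfb1 was 3.32 and 3.59 with PDGF-BB and 0.88 and 0.93 with vehicle, a shift of 2.55, or 5.88-fold. Inhba minus Tgfb2 shifted by 4.12 and Inhba minus Tgfb3 by 3.81. In these 6 comparisons other than Fst, the shift was over 10 times the largest SD between arrays of a group, 0.19, which was that of the Tgfb1 difference with PDGF-BB. Over 10 other settings each, the shifts stayed between 2.09 and 2.69 for Tgfb1 and between 3.21 and 4.23 for the other 5 genes.

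**Figure D3:**
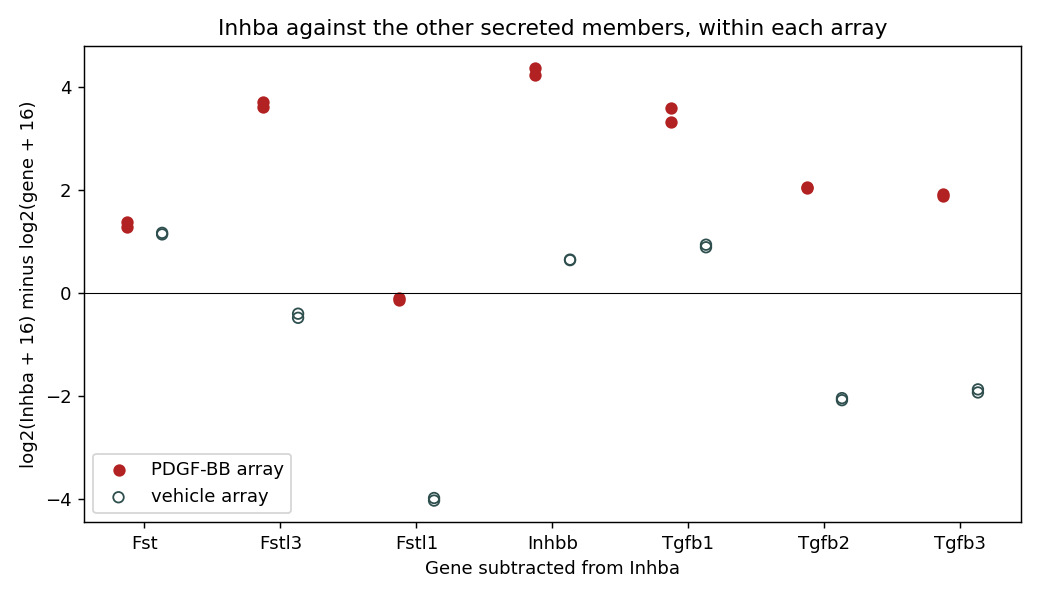
Within each array, log2(intensity + 16) of Inhba minus that of another secreted member, for the 2 PDGF-BB arrays (filled) and the 2 vehicle arrays (open). The groups lie 0.18 apart for Fst, 2.55 apart for Tgfb1 and 3.67 to 4.12 apart for the other 5 genes; the height at which a pair lies has no meaning.

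By the rule for likeness, the genes closest to Inhba were Ccl7, Slfn2, Lbh, Ccl2 and Shc4. Likeness was the root-mean-square difference between the log2 values on the 4 arrays, each gene centred on its own vehicle mean, over 12921 other genes. It was 0.03 for Ccl7 and Slfn2, 0.05 for Lbh, 0.07 for Ccl2 and 0.09 for Shc4. Ccl7 and Ccl2 encode chemokines that attract monocytes, Slfn2 a Schlafen family protein, Lbh a transcriptional cofactor and Shc4 an adaptor of receptor tyrosine kinases. Ccl2 read 2354 and 2126 with PDGF-BB and 126 and 135 with vehicle. Lbh read 4987 and 4783 with PDGF-BB and 326 and 306 with vehicle. With 4 arrays in 2 groups, this likeness mostly means a similar size of change.

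The wider pathway was followed through 5 lists of genes, 86 of them measured, which hold 5 of the members. Without those, 14 of 81 genes were higher and 5 lower, 23.5%, which is near the 27.6% of all genes, with a median log2 fold change of -0.03, as over all genes (-0.03). Leaving out 1 array reduced the 16 higher and 5 lower genes of all lists, members included, to 7 and 4 in the fit that lacked PDGF-BB replicate 1, and to 9 and 1 in that lacking PDGF-BB replicate 2. They were 5 and 0 with vehicle replicate 1 left out and 6 and 0 with vehicle replicate 2 left out.

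Among 9 other ligand genes measured, 1 was higher and 0 lower (11.1% called, against 27.6% of all genes). It was Gdf10, at 52.2 and 44.2 with PDGF-BB and 25.2 and 20.7 with vehicle, all below the highest Bacillus control, like 7 of the 9 in both group means. Its call was lost without any one of the 4 arrays (adjusted p 0.0561 to 0.124 by limma). Inha, whose chain joins a beta chain to form inhibin, the endocrine antagonist of activin, read 91.6 and 94.0 with PDGF-BB and 120 and 123 with vehicle, a log2 fold change of -0.34 (adjusted p 0.0531 by limma, SE 0.09).

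Of 11 receptor genes measured, Acvr1 was higher and Bmpr1a lower, and 9 missed the threshold (18.2% called, against 27.6% of all genes). Bmpr1a, a type I receptor of BMPs, read 392 and 322 with PDGF-BB and 581 and 705 with vehicle. Its log2 fold change was -0.82 (adjusted p 0.0261 by limma, SE 0.15). The call was lost with an offset of 1 and without any one of the 4 arrays. Over 12 other settings the log2 fold change of Bmpr1a ran from -0.96 to -0.69. The type II activin receptor gene Acvr2a stood at 228 ± 16.7 with PDGF-BB and 229 ± 11.4 with vehicle (SD, n = 2), a log2 fold change of -0.01. Acvr2b had means of 39.8 with PDGF-BB and 49.2 with vehicle, below the highest Bacillus control. Tgfbr2 and Acvr1b had no probe set of a single symbol and were not analysed here.

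Among 24 extracellular regulators, 3 were higher and 0 lower (12.5% called, against 27.6% of all genes). Besides Fst these were Vasn and Furin. Vasn, vasorin, a membrane protein of vascular smooth muscle that binds TGF-beta, read 3464 and 3588 with PDGF-BB and 981 and 1005 with vehicle, a log2 fold change of 1.81 (adjusted p 0.00118 by limma, SE 0.09) that stayed called under all 12 other settings. Furin, the protease that cleaves the TGF-beta and activin precursors, read 2182 and 2346 with PDGF-BB and 1549 and 1411 with vehicle. Its log2 fold change was 0.61 (adjusted p 0.0195 by limma, SE 0.10), and the call was lost without any one of the 4 arrays (0.0548 to 0.142). The latency proteins Ltbp1 to Ltbp4 missed the threshold, with log2 fold changes of 0.36, -0.21, -0.23 and -0.16 (adjusted p 0.0555, 0.186, 0.123 and 0.364 by limma). Ltbp1 missed it narrowly.

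Of 19 Smads and their regulators, 6 were higher and 3 lower (47.4% called, against 27.6% of all genes). In this list 0 genes had both group means at or below the highest Bacillus control. Among all probe sets with a vehicle mean of 250 to 5000, 37.4% were called. Tgif1, a corepressor of Smad2, read 2473 and 2458 with PDGF-BB and 778 and 758 with vehicle, a log2 fold change of 1.66 (adjusted p 0.00137 by limma, SE 0.09). Nedd4l, a ubiquitin ligase of activated Smad2, read 621 and 503 with PDGF-BB and 144 and 161 with vehicle, a log2 fold change of 1.78 (adjusted p 0.00357 by limma, SE 0.14). Pmepa1, which keeps Smad2 and Smad3 from the receptor, read 8091 and 7835 with PDGF-BB and 3916 and 4171 with vehicle, a log2 fold change of 0.98 (adjusted p 0.00507 by limma, SE 0.09).

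Skil, the SnoN corepressor, moved the other way. It read 1664 and 1576 with PDGF-BB and 2525 and 2763 with vehicle, a log2 fold change of -0.70 (adjusted p 0.0128 by limma, SE 0.10). Tgif1 and Nedd4l stayed called in all 12 other settings. Pmepa1 lost its call without vehicle replicate 1 (0.0581), and Skil without PDGF-BB replicate 2 (0.0609), vehicle replicate 1 (0.0818) or vehicle replicate 2 (0.107). The list's counts were 2 to 5 higher and 0 to 2 lower when 1 array was left out. Of the Smads that carry the activin and TGF-beta signal, Smad2 had a log2 fold change of 0.48 (adjusted p 0.0274 by limma), a call lost without any one array, with the replicate number as a block or with an offset of 1. Smad3 had -0.21 and Smad4, the shared partner, -0.19, both short of the threshold.

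Genes commonly listed as raised by TGF-beta or activin went in both directions. Of 27 measured, 7 were higher, 2 lower and 18 missed the threshold, with a median log2 fold change of 0.01. The share called was 33.3%, against 27.6% of all genes. Bhlhe40, a transcriptional repressor, read 313 and 296 with PDGF-BB and 40.6 and 34.2 with vehicle. Its log2 fold change of 2.59 (adjusted p 0.000829 by limma, SE 0.11) stayed called under 12 other settings. Over these the log2 fold change ran from 1.86 to 3.00, and both vehicle values lie below the highest Bacillus control. Snai1, a repressor of epithelial genes, read 1331 and 1186 with PDGF-BB and 594 and 586 with vehicle, a log2 fold change of 1.07 (adjusted p 0.00520 by limma, SE 0.10), lost without either vehicle array (0.0531 each).

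Cdkn2b, the CDK inhibitor p15, read 275 and 260 with PDGF-BB and 133 and 154 with vehicle, a log2 fold change of 0.83 (adjusted p 0.0108 by limma, SE 0.11), a call lost without any one of the 4 arrays (0.0550 to 0.0870). Pmepa1, counted in the list of Smad regulators too, stood between Bhlhe40 and Snai1 by p. Angptl4, a secreted regulator of lipoprotein lipase, fell. It read 77.3 and 56.0 with PDGF-BB and 164 and 174 with vehicle, a log2 fold change of -1.17 (adjusted p 0.0109 by limma, SE 0.15), a call lost without either vehicle array (0.0696 and 0.0744). Both PDGF-BB values of Angptl4 lie below the highest Bacillus control. The other gene lower was Skil, given above. Ccn2, connective tissue growth factor, was at 11088 ± 87.5 with PDGF-BB and 11322 ± 99.6 with vehicle, and Fn1, fibronectin, at 10946 ± 310 with PDGF-BB and 10140 ± 241 with vehicle (SD, n = 2), and neither passed. Both lie in the bright range where 1 of 127 probe sets was called. With 1 array left out, 1 to 3 target genes were higher and 0 to 2 lower.

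**Figure D4:**
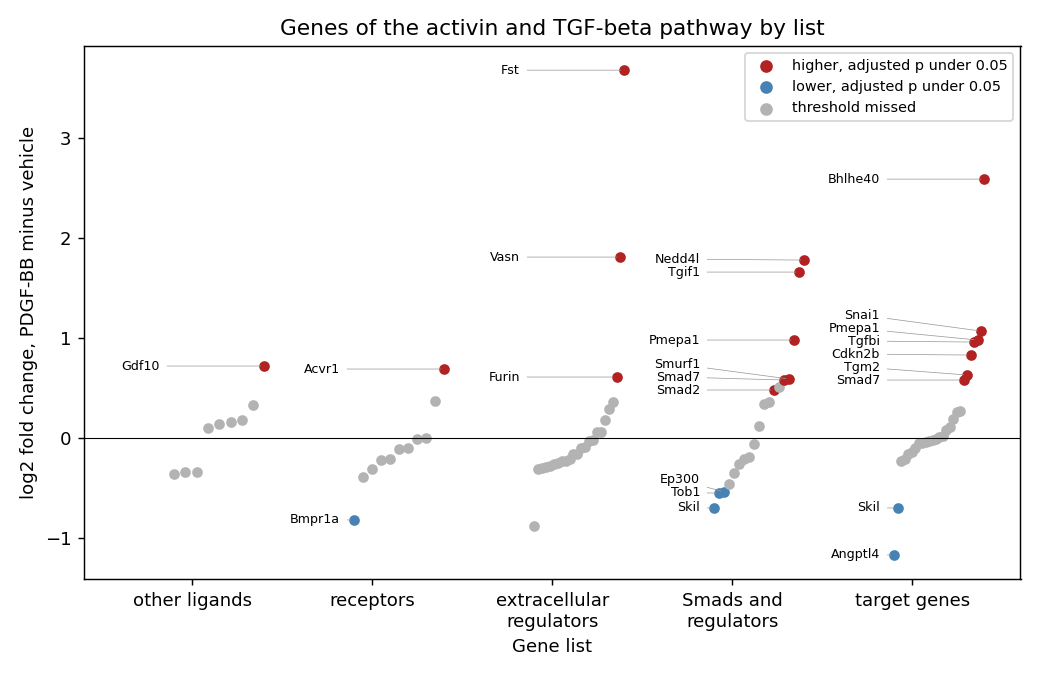
Log2 fold change, PDGF-BB minus vehicle, of each measured gene in 5 pathway lists, ordered by size within a list, with names at the genes that passed a limma adjusted p of 0.05 (red higher, blue lower) and grey for the rest. Fst, Bhlhe40, Vasn, Nedd4l and Tgif1 lie furthest above 0. Of the Smads and their regulators, 9 of 19 passed (47.4%). That compares with 27.6% of all genes and 37.4% of probe sets with a vehicle mean of 250 to 5000.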

How the data were processed

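RNA from 4 samples was measured on Affymetrix arrays after labelling as biotinylated cRNA, per the labels' protocols. The authors deposited probe set intensity values on a linear scale, as the values show, with summary software, background correction and scaling not given in the sources used here. Sample titles gave the groups and replicate numbers. Of 23764 probe sets, 57 controls were left out. A platform annotation of 2016 gave 1 symbol to 17279 probe sets, several to 373 and none to 6055; all 10 members are in the RefSeq gene table. A gene was represented by its probe set with the highest mean log2 value.

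Values were tested as log2(intensity + 16), which understates changes of dim genes, with two-sided moderated tests (limma 3.58.1, R 4.3.3; lmFit, eBayes). Benjamini-Hochberg adjustment ran over 23707 probe sets. There were 2 residual and 2.40 prior degrees of freedom. SEs and intervals are limma's moderated ones. The fit was tested on simulated data with independent noise and few shifted probe sets. Many more probe sets were called here, so that test cannot show how the fit behaves on these arrays. Shifts of Inhba against other members used an exact permutation test. Members, lists, rules and tests were chosen with earlier results of these data known. Named from the lists were up to 4 called genes with the smallest p, beside the 10 members and the 5 genes most like Inhba. Inha, Acvr2a, Acvr2b, Ltbp1 to Ltbp4, Smad2, Smad3, Smad4, Angptl4, Ccn2 and Fn1 were added after their values were seen. Alternatives were the offset, 3 scalings, a filter on dim probe sets, an intensity trend, a replicate block and leaving out each array. The 2 replicate numbers are shared between groups, but deviations of same-numbered arrays from their group means had a correlation of -0.098 across probe sets, so the numbers were not taken as pairs.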

Additional observations from a re-analysis of the deposited data

How the results depend on the processing

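Inhba and Fst, with 2 probe sets each, kept direction and call under all 12 alternatives. The count of higher member genes was 4, and 8 with every probe set counted; it was 2 to 3 when 1 array was left out, since Acvr1 lost its call each time and Tgfb1 without either vehicle array. The higher count was 5, with Tgfbr1 added, with an offset of 64, quantile normalization, array medians subtracted or cyclic loess. It was also 5 with dim probe sets left out or with an intensity trend. The count of lower member genes was 0, but 1 with an offset of 64, 2 with quantile normalization and 1 with cyclic loess, with dim probe sets left out or with an intensity trend. The genes of all lists were 5 to 9 higher and 0 to 4 lower with 1 array left out, against 16 and 5; lower genes were 11 with an offset of 64, 16 with quantile normalization, 10 without dim probe sets and 13 with an intensity trend, and higher genes 21 to 24 under these 4, array medians subtracted and cyclic loess. All genes moved too: 27.6% were called, against 20.8% and 14.6% without PDGF-BB replicate 1 or 2, 6.1% and 6.5% without vehicle replicate 1 or 2, and 32.8% to 51.9% under those 6 settings. The 51.9% is a share of the 9103 genes left by the filter on dim probe sets, and the other percentages are shares of 12922. Leave-one-out fits have a lone array in 1 group, which is assumed to vary like the other group. The Inhba shift against Fst reversed to -0.39 with all probe sets averaged, and the other 6 shifts kept their direction under 10 alternatives each. With a replicate block, the fit called 2992 of 12922 genes against 3570, and 4 member genes higher and 0 lower, as without it; the block changed no member's call.

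Log2 fold changes near 0 took the other sign under some settings. With array medians subtracted, the 3 Fstl1 probe sets were at 0.05, 0.03 and 0.05, the second of Tgfb2 at 0.00 and the dimmer one of Tgfbr1 at 0.07. Tgfb3 was at -0.10 with quantile normalization and -0.00 with cyclic loess, where dim Tgfbr1 was at 0.08 and 0.12. With 1 array left out, Fstl1 1368821_at ran from -0.08 to 0.03 and Tgfb2 1388011_a_at from -0.20 to 0.05, both positive without vehicle replicate 2. Tgfbr1 1369504_at ran from -0.06 to 0.05, positive without PDGF-BB replicate 2 (0.01) or vehicle replicate 1 (0.05). The causes were not tested. Precision is limited by 2 arrays per group.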

Other observations

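The probe sets of a gene did not always give one size. The 2 Inhba probe sets were 14.5-fold and 7.65-fold higher with PDGF-BB, a gap of 0.92 on the log2 scale, while those of Fst differed by 0.21 and the 3 of Acvr1 by 0.14. For Tgfbr1, the brighter probe set had a log2 fold change of 0.37 and the dimmer one -0.00, a gap of 0.37. Which transcripts each probe set reads was not tested.

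The brightest Inhba probe set reached a mean of 11769 with PDGF-BB, in the range above 10000 where 3 Fstl1 probe sets and 127 probe sets in all lay with vehicle.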
